A study of Mus musculus with 13 samples.

Results

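A set of 9 genes is described whose products are best known from neutrophils and mast cells, in libraries of mouse haematopoietic stem cells (HSCs). They were chosen by name, with earlier results of these data known, and their Ensembl identifiers were matched to GENCODE M21 symbols. Of the 9 genes, 8 were in the deposited table of 13201 genes, and all 8 passed the filter on low values that left 12846 genes for testing. The remaining gene, Ctsg, which encodes the primary granule protease cathepsin G, was not analysed here. The filter kept genes that reached a normalized count of 10 in 3 or more libraries. Lcn2 passed it through the wild-type libraries after 5-FU alone, the group where it is high, so its passing already implied a difference. Elane passed it through libraries of both genotypes after 5-FU alone, so its passing already implied a difference with 5-FU.

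Each library held polyadenylated RNA of 100 HSCs sorted from mouse bone marrow and was made by Smart-seq2, a full-length cDNA method for small inputs. Wild-type (WT) cells were compared with cells deficient in MEK1 (KO), the product of Map2k1 and a kinase upstream of ERK, either untreated or after 5-fluorouracil (5-FU), a drug that kills dividing blood cells. The 13 libraries formed 4 groups, namely 3 untreated WT (D1, D2, D3), 3 untreated KO (D4, D5, D6), 4 drug-treated WT (A2, A3, A4, D4) and 3 drug-treated KO (A5, A6, A8). The sources used here do not give the strain, the age, the way the gene was deleted, the drug's dose or the sampling time. They also do not tie each library to its own animal. The spread behind the p-values is that between libraries and may be technical. Values for single libraries follow the order of the labels above.

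Neutrophil precursors pack their proteins into granules in a fixed order. Primary granules come first and hold myeloperoxidase (Mpo) and the serine proteases elastase (Elane), proteinase 3 (Prtn3) and cathepsin G, and secondary granules follow with proteins such as lipocalin 2 (Lcn2), which binds iron-carrying siderophores. S100a8 and S100a9 encode the subunits of calprotectin, a metal-binding protein of the neutrophil cytosol. Plac8 encodes a small cysteine-rich protein of myeloid cells and early progenitors. Fcer1a encodes the IgE-binding alpha chain of the high-affinity IgE receptor, a surface protein of mast cells and basophils rather than a granule protein. Stem and progenitor cells are known to carry RNA of myeloid genes before they commit to a lineage.

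Of these genes, 2 pairs are neighbours. Prtn3 (ENSMUSG00000057729) spans 79874476 to 79883174 and Elane (ENSMUSG00000020125) 79886247 to 79888215 on chromosome 10 (GRCm38, plus strand), 3072 bases apart with 0 annotated genes between them. S100a8 (ENSMUSG00000056054) spans 90668978 to 90670035 on the plus strand of chromosome 3. S100a9 (ENSMUSG00000056071) spans 90692632 to 90695721 on the minus strand, 22596 bases away with 0 genes between. Fcer1a (ENSMUSG00000005339) spans 173221284 to 173227214 on the minus strand of chromosome 1. The 250 bases before the RefSeq start of transcription (GRCm38.p6) are shown for these 5 genes, because the neighbours differ in level or share their pattern and Fcer1a had the largest difference between genotypes. The stretches are chr10:79879417-79879666 for Prtn3 and chr10:79886062-79886311 for Elane. Those of the calprotectin genes are chr3:90668821-90669070 for S100a8 and chr3:90695722-90695971 for S100a9, and that of Fcer1a is chr1:173227230-173227479. Each is written 5′ to 3′ on its gene's strand, and capitals mark matches to the motifs named after the sequences.
Prtn3: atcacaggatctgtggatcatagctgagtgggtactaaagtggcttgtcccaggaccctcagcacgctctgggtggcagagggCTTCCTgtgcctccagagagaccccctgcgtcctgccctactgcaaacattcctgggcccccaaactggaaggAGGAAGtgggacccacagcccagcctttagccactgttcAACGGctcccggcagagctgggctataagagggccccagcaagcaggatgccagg
Elane: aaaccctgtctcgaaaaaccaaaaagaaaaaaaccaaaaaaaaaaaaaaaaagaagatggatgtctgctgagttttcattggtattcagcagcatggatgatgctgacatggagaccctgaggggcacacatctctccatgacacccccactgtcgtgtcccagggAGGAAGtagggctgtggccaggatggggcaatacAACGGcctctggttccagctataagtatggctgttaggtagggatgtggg
S100a8: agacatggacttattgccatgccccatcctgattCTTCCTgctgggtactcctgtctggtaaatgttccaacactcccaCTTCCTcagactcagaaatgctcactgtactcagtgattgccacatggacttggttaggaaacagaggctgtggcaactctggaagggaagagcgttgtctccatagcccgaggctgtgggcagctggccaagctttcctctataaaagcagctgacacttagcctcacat
S100a9: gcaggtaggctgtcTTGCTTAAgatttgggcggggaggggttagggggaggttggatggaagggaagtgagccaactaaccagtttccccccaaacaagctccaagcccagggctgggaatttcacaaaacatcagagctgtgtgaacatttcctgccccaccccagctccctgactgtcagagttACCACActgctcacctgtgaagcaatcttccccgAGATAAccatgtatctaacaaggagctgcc
Fcer1a: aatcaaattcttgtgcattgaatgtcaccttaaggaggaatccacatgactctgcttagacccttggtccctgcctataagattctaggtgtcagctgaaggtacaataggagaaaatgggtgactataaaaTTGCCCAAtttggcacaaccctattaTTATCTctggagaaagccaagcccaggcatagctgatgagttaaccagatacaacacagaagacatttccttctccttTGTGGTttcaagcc

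Motifs of factors known from myeloid and mast cells were searched on both strands of windows that add the first 50 bases of the transcript. They were TTGCNNAA for C/EBP, AGGAAG for PU.1, TGTGGT for RUNX, AGATAA for GATA and AACGG for MYB, and no match overlapped a match of another motif in the members' windows. Among 32817 windows of the same length, 10.81% held the C/EBP letters, 35.35% those of PU.1, 16.76% those of RUNX, 11.18% those of GATA and 17.43% those of MYB. The protease neighbours had the same arrangement near their starts, with PU.1 and MYB matches 94 and 55 bases before the start in Prtn3 and 84 and 50 bases before it in Elane. Prtn3 had a further PU.1 match at 167 bases. The calprotectin neighbours shared no motif. S100a8 had PU.1 matches at 216 and 171 bases, whereas S100a9 had C/EBP at 236, RUNX at 64 and GATA at 30 bases. Fcer1a held C/EBP at 118, GATA at 92 and RUNX at 14 bases. All 9 genes had at least 1 window (10 windows, as Plac8 has 2), and those of Mpo, Ctsg and Lcn2 held 3 PU.1 matches each. These are letter matches and not measured binding.

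**Figure D1:**
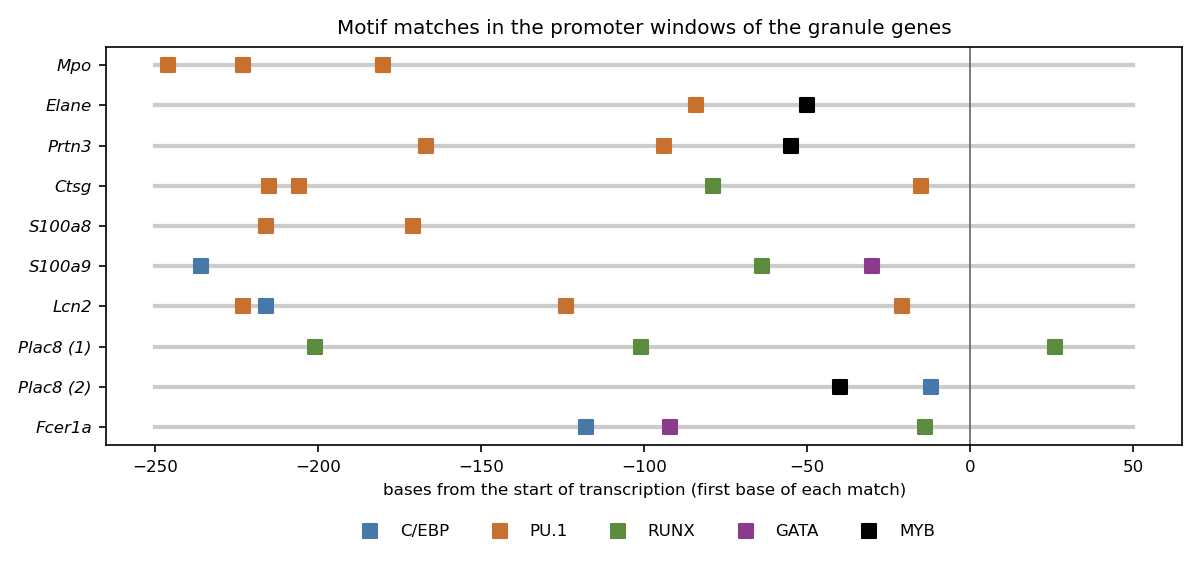
Motif matches in the promoter windows of the 9 genes, by distance in bases from the start of transcription (x axis, 0 at the start); each row is a window and each square the first base of a match. PU.1 and MYB matches stand at nearly the same distances in Elane (84 and 50) and Prtn3 (94 and 55).

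All levels are given as normalized counts, computed back from the log2-scale values that the authors deposited. Read totals were 11416753 to 25380570 in 12 libraries and 45384866 in untreated WT D1, which was sequenced on both flowcells. With counting error alone, 0 reads are compatible with up to 3, which here equals a normalized count of 0.979 (deepest library) to 4.35. Map2k1 was still detected in every KO library, at 545 to 749.8 against 905 to 1766 in untreated WT libraries, and at 304 to 459.9 against 584 to 1634 after 5-FU. It was called lower in KO after 5-FU (log2 -0.96, limma adjusted p = 0.0339) but not in untreated cells (log2 -0.69, limma adjusted p = 0.460). WT A2 and A4 after 5-FU, at 604 and 584, lay within the range of the untreated KO libraries. All 13 genes of a list of HSC markers were in the table and passed the filter, but the list holds Cd34, Flt3 and Cd48, which are not specific to HSCs. Detection of the list therefore does not check the identity of the sorted cells. After 5-FU, WT A3 and D4 resembled each other more (Pearson r = 0.988 across genes) than other pairs of a group (0.914 to 0.977), and the label dates D4 to 2015 like the untreated libraries, the others after 5-FU being dated 2016. Treatment and date therefore cannot be told apart in KO cells, and in WT cells only D4 bears on them. A fit with acquisition date as a term takes the effect of date from WT D4 against A2, A3 and A4 alone. Its WT response to 5-FU then rests on D4 alone. The members were also tested without A3, without D4, without both and with both averaged. These fits changed the call of 2 results, the WT response of Plac8 and the interaction of Fcer1a, which are given with them.

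The members spanned a wide range of levels in the same cells. Per kilobase of exon in WT cells after 5-FU, the mean normalized count was 5337 for Plac8, 2329 for Prtn3, 1524 for Fcer1a and 741 for S100a8. It was 264 for S100a9, 38.8 for Elane, 21.9 for Lcn2 and 2.24 for Mpo on the same scale. The length joined all annotated exons of a gene, which may exceed the transcript made in these cells, and the order depends on it. Lcn2 (2623 bases) thus lies below Elane (984 bases), although its mean count was higher (57.5 against 38.2). In untreated WT cells the order per kilobase began with Prtn3 at 2663 and Plac8 at 1978, followed by Fcer1a at 188, S100a9 at 84.3, S100a8 at 67.0 and Mpo at 6.42. Elane and Lcn2 had 0 reads in all 3 untreated WT libraries.

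**Figure D2:**
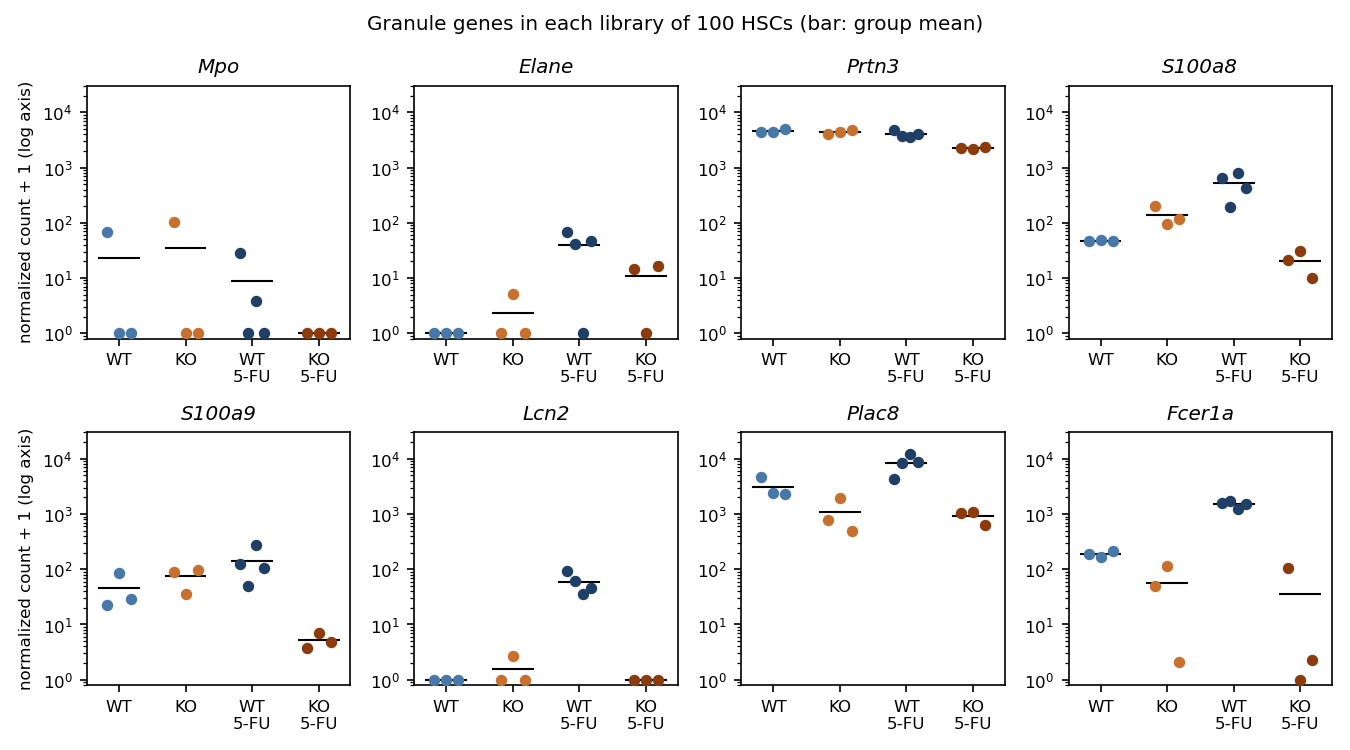
Normalized count plus 1 (log axis) of the 8 genes in every library; points are libraries, bars are group means, and the 4 columns are untreated WT and KO and WT and KO after 5-FU. Prtn3 is at 2212 or above in all 13 libraries, while Fcer1a, S100a8, S100a9 and Lcn2 are highest in WT after 5-FU and lowest, or near it, in KO after 5-FU.

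Most of these genes were lower in KO than in WT cells after 5-FU, and none was called between untreated genotypes. In untreated cells 0 of the 8 genes were called between KO and WT (limma on the deposited log2-scale values, Benjamini-Hochberg adjusted p under 0.05), against 0.0311% of all genes tested. At an unadjusted p under 0.05 there were 2, Plac8 and Fcer1a, among 1291 of the 12846 genes, and limma-voom on the recovered reads also called 0. After 5-FU 6 of the 8 were lower in KO and 0 were higher, where 10.9% of all genes tested were called and 5.50% were called lower. Those 6 were Fcer1a, Plac8, S100a8, S100a9, Prtn3 and Lcn2, and their groups did not overlap, as was so for 27.0% of all genes. The median log2 difference of the 8 was -0.80, against -0.02 over all genes. Because the genes were chosen with earlier results of these data known, these counts and shares are not a test of the set. In WT cells 5-FU raised 4 of the 8, namely Fcer1a, S100a8, Lcn2 and Plac8, where 6.68% of genes were called and 3.72% were called higher. Lcn2 is counted in both the 6 and the 4, but it passed the filter through WT libraries after 5-FU alone. Its calls are therefore no support for a change of the set. In KO cells only Prtn3 among the 8 was called with 5-FU, and it fell, with 5.92% of genes called. The lower means of S100a8 and S100a9 in KO cells after 5-FU were not called here, but were called under some alternatives. The change of response with genotype (the interaction) was called for Fcer1a and S100a8, with 2.84% of genes called. In a library of 100 pooled cells, fewer cells with a transcript and less of it per cell cannot be told apart.

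**Figure D3:**
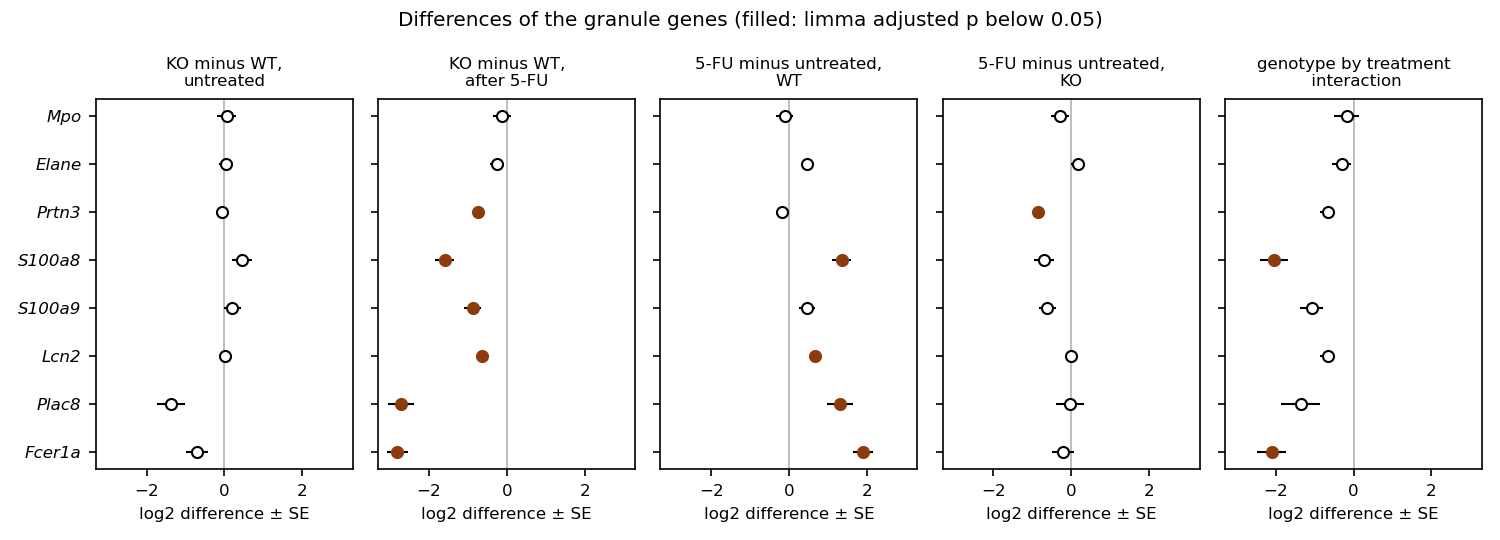
Log2 difference (x axis, deposited scale) with its standard error for each of the 8 genes in the 5 comparisons; filled points passed an adjusted p under 0.05 in limma. The 6 filled points of KO minus WT after 5-FU all lie below 0, from -0.64 for Lcn2 to -2.81 for Fcer1a.

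Among the primary granule genes, Prtn3 was abundant and Mpo and Elane were close to absent. Prtn3 had normalized counts of 4448, 4375 and 5012 in untreated WT libraries, against 4016, 4439.6 and 4744 in untreated KO libraries. After 5-FU the 4 WT libraries stood at 4832, 3655, 3519 and 4127, the 3 KO libraries at 2241, 2212 and 2361. The KO libraries after 5-FU lay below all 10 others and within a narrow range, while the other 3 groups overlapped. KO was 1.78-fold lower than WT after 5-FU (2271 ± 78.9 against 4033 ± 593, SD, n = 3 and 4), a log2 difference of -0.73 (SE 0.134, limma adjusted p = 0.00203). The same gene fell 1.94-fold from untreated to 5-FU in KO cells (log2 -0.85, SE 0.143, adjusted p = 0.00235) from a mean of 4400.0 ± 365 (n = 3). With acquisition date as a term the log2 difference was -0.80. That fit takes the effect of date through WT D4 alone and cannot decide whether the fall holds apart from date. In WT cells the mean went from 4612 ± 349 to 4033 ± 593 and the difference was not called (log2 -0.18, adjusted p = 0.452). The interaction was not called either (log2 -0.66, SE 0.196, adjusted p = 0.0803), so a different response in the 2 genotypes was not shown. Plppr3 overlaps Prtn3 on the other strand, and Smart-seq2 does not mark strand, so their reads cannot be told apart. Reads assigned to Plppr3 came to normalized counts of 8.99 to 139.6.

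Elane, the neighbour of Prtn3, encodes neutrophil elastase. It had 0 reads in the 3 untreated WT libraries and in untreated KO D4 and D6, and a normalized count of 4.09 in KO D5. After 5-FU it reached 67.1, 40.6 and 45.2 in WT A2, A3 and D4 but 0 in A4, and 13.4 and 15.6 in KO A5 and A8 but 0 in A6. Reads thus appeared in 5 of 7 libraries after 5-FU and 1 of 6 before, in each genotype with 1 library at 0. Neither the difference in WT (log2 0.47, SE 0.164, adjusted p = 0.0994) nor the difference between genotypes after 5-FU (log2 -0.26, adjusted p = 0.353) was called. Without WT A4 the difference in WT was called (log2 0.62, adjusted p = 0.0152). With library weights both were called (log2 0.55, adjusted p = 0.0330, and log2 -0.41, adjusted p = 0.00431). As Elane passed the filter through libraries after 5-FU alone, the calls of the difference in WT are no independent support for it.

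Mpo (ENSMUSG00000009350, chromosome 11, 87793581 to 87804413, plus strand), whose enzyme makes hypochlorous acid, was found in single libraries. Its normalized counts were 65.9 in untreated WT D1, 100.4 in untreated KO D4, 27.8 and 2.85 in WT A2 and A4 after 5-FU, and 0 in the other 9 libraries. No comparison of it was called, with adjusted p from 0.556 to 0.973. In the 3 KO libraries after 5-FU a count of 0 allows up to 3.54 to 4.03. The predicted gene Gm11505 overlaps Mpo on the other strand.

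S100a8 rose after 5-FU in WT cells, and both calprotectin genes were lower in KO than in WT after 5-FU. S100a8 had normalized counts of 46.7, 47.5 and 45.4 in untreated WT libraries and 202, 94.8 and 116 in untreated KO libraries. The WT libraries reached 639, 196, 804 and 419.8 after 5-FU, whereas the KO libraries had 20.2, 29.5 and 9.11. In order of level, KO after 5-FU, untreated WT and untreated KO did not overlap, and WT after 5-FU overlapped untreated KO alone, through WT A3 at 196 and untreated KO D4 at 202. KO was 26.3-fold lower than WT after 5-FU (19.6 ± 10.2 against 514 ± 264, n = 3 and 4), with a log2 difference of -1.59 (SE 0.246, limma adjusted p = 0.000512). WT rose 11.1-fold from 46.5 ± 1.03 (log2 1.35, adjusted p = 0.00299). With acquisition date as a term the log2 difference was 1.24. That fit rests on WT D4 alone and cannot decide whether the rise holds apart from date. In KO the mean was 138 ± 56.5 before and 19.6 ± 10.2 after 5-FU, which was not called (log2 -0.70, adjusted p = 0.139). On the log2 scale of normalized counts plus 1 this difference was called (adjusted p = 0.0290), but with limma-voom it was not (adjusted p = 0.237). The interaction was called, at -2.05 on the log2 scale (SE 0.360, adjusted p = 0.00800). It was called again with WT A3 and D4 averaged (adjusted p = 0.00652) and without either or both.

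S100a9 was, like S100a8, highest on average in WT after 5-FU and lowest in KO after 5-FU. Its normalized counts were 21.2, 83.3 and 27.5 in untreated WT libraries and 89.4, 35.2 and 95.2 in untreated KO libraries. The drug-treated WT libraries had 125, 47.8, 276 and 102, whereas KO libraries had 2.69, 5.90 and 3.90, from 2, 5 and 3 reads. The level of 3 reads in these KO libraries was 3.54 to 4.03. The KO libraries after 5-FU were below all others, and the other 3 groups overlapped. The KO mean was 33.1-fold below the WT mean after 5-FU (4.16 ± 1.62 against 138 ± 97.6), with a log2 difference of -0.88 (SE 0.208, limma adjusted p = 0.0123). Because the KO mean lies near the level of 3 reads, the ratio is imprecise. This call was lost without KO A5 (adjusted p = 0.0544), and without WT A4 the ratio was 22.0. The difference with 5-FU was not called in WT (log2 0.47, adjusted p = 0.196) or in KO (log2 -0.61, adjusted p = 0.123), and neither was the interaction (log2 -1.08, adjusted p = 0.0676). On the log2 scale of normalized counts plus 1 the difference in KO (adjusted p = 0.0269) and the interaction (adjusted p = 0.0387) were called. WT A4 was the highest library and A3 the lowest of the WT group after 5-FU for both calprotectin genes.

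Lcn2 (ENSMUSG00000026822, chromosome 2, 32384633 to 32388252, minus strand) was the member with the plainest presence and absence. Its normalized counts in the WT libraries after 5-FU were 91.4, 59.4, 35.2 and 43.8. In the other 9 libraries it was at 0, except for 1.64 in untreated KO D5, which is under the level of 3 reads. All 4 WT libraries after 5-FU therefore stood apart from the other 9. With the level of 3 reads in each library in place of 0, KO was at least 15.0-fold lower than WT after 5-FU (57.5 ± 24.8 in WT, n = 4), and WT after 5-FU was at least 22.6-fold higher than untreated WT. Limma gave log2 differences of -0.64 (SE 0.129, adjusted p = 0.00380) and 0.66 (SE 0.129, adjusted p = 0.00516) for these comparisons. As Lcn2 passed the filter through these WT libraries alone, both calls are no independent support for a difference. With acquisition date as a term the log2 difference in WT was 0.57, in a fit that rests on WT D4 alone and cannot decide the rise. The interaction was not called (log2 -0.66, adjusted p = 0.0679), but it was on the log2 scale of normalized counts plus 1 (adjusted p = 0.0450) and with library weights (adjusted p = 0.0433).

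Plac8 (ENSMUSG00000029322, chromosome 5, 100553725 to 100572245, minus strand) had the highest counts of the members in WT after 5-FU. Untreated WT libraries held normalized counts of 4747, 2376 and 2325, untreated KO libraries 779, 1936 and 487. Drug-treated WT libraries held 4336, 8456, 12283 and 8909.6, drug-treated KO libraries 1025, 1089.5 and 645. Every KO library was below every WT library, the KO groups overlapped each other, and untreated WT D1 lay above WT A2 after 5-FU. In untreated cells the genotypes did not pass the test (3149 ± 1384 against 1067 ± 766, n = 3 and 3, log2 -1.37, SE 0.365, limma adjusted p = 0.190). After 5-FU it was 9.24-fold (8496 ± 3257 against 920.0 ± 240.1, log2 -2.72, SE 0.341, adjusted p = 9.67e-05). The rise with 5-FU in WT was 2.70-fold (log2 1.31, adjusted p = 0.0283), but it was not called with A3 and D4 averaged (adjusted p = 0.0748) or without any one of D2, D3, A3, A4 and D4 (highest adjusted p = 0.108). In KO cells the mean differed little between states (log2 -0.04, SE 0.365, adjusted p = 0.967), and the interaction was not called (log2 -1.35, adjusted p = 0.168).

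Fcer1a, the IgE receptor chain, gave the smallest p of the members between genotypes after 5-FU. Its normalized counts were 188, 164 and 209 in untreated WT libraries and 48.8, 114 and 1.06 in untreated KO libraries. The WT libraries after 5-FU reached 1559.9, 1719.5, 1254 and 1550.2, and those of KO had 103, 0 and 1.30, from 77, 0 and 1 reads. All WT libraries were above all KO libraries in each state, and the WT groups were close within themselves, whereas the KO groups overlapped and ran from 0 to 114. After 5-FU the KO mean was 43.6-fold lower (34.9 ± 59.4 against 1521 ± 194, n = 3 and 4), with a log2 difference of -2.81 (SE 0.259, limma adjusted p = 8.33e-06). KO A5 set the KO mean, and without it the remaining KO mean is under the level of 3 reads, so no ratio is given for it, and the log2 difference was -3.10. In untreated cells the difference of 187 ± 22.4 against 54.8 ± 56.9 (n = 3 and 3) was not called (log2 -0.70, SE 0.277, adjusted p = 0.393).

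With 5-FU Fcer1a rose 8.12-fold in WT (log2 1.89, SE 0.259, limma adjusted p = 0.000307) and did not pass in KO (log2 -0.21, SE 0.277, adjusted p = 0.738). The interaction was -2.10 on the log2 scale (SE 0.379, adjusted p = 0.00907). It was called with WT A3 and D4 averaged (adjusted p = 0.0192), but not with both left out (adjusted p = 0.0564), an alternative chosen after the data were seen. On the log2 scale of normalized counts plus 1, neither the difference with 5-FU in WT (log2 3.01, adjusted p = 0.234) nor the interaction (log2 -4.89, adjusted p = 0.242) was called. WT D4, the only library after 5-FU dated 2015, had 1550.2 against 164 to 209 in the untreated WT libraries. As it closely resembled A3, dated 2016, drug and date cannot be told apart by this library. In the fit without D4, the libraries compared after 5-FU are all dated 2016. There the 6 differences between genotypes after 5-FU were all called, with limma adjusted p from 6.39e-05 for Fcer1a to 0.0254 for S100a9. The untreated libraries of 2015 stayed in that fit and share in its estimate of the spread.

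Other primary granule genes moved in both directions with 5-FU. Of 16 listed genes apart from the members, 12 were in the table and all were tested, and 2 were lower and 0 higher in KO after 5-FU, with a median log2 difference of -0.15. The lower ones were Srgn, the proteoglycan core that retains granule contents, at 18777 ± 1015 against 30999.8 ± 4345 (log2 -0.70, limma adjusted p = 0.00163), and Nkg7, a granule membrane protein of cytotoxic cells, at 2746 ± 1057 against 6289 ± 426 (log2 -1.15, adjusted p = 0.0142). Gstm1, a glutathione transferase, was not called (log2 -0.64, adjusted p = 0.0547). In WT cells 5-FU raised 2 of the 12 and lowered 2. Ms4a3, a marker of granulocyte and monocyte progenitors, rose 18.4-fold from 16.6 ± 15.5 to 305 ± 196 (adjusted p = 0.0161), while the granule membrane protein gene Cd63 fell 1.76-fold (adjusted p = 0.000633). In KO cells 1 rose and 2 fell, and the interaction was called for 0 of the 12.

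Genes of secondary and later granules and of mature neutrophils moved in both directions. Of 26 listed genes apart from the members, 15 were in the table and tested, and after 5-FU 3 were higher and 1 was lower in KO, with a median of 0.07. Lyz2, which encodes the lysozyme of myeloid cells, was the lower one, at 8447 ± 505 against 15981 ± 1293 (log2 -0.89, limma adjusted p = 0.000118). Its KO counts of 7866, 8772 and 8705 lay below all WT counts of 14646 to 17690.2. Anxa1, which encodes the anti-inflammatory protein annexin A1, was higher at 3024 ± 319 against 1228 ± 362 (log2 1.11, adjusted p = 0.000732). Cybb, a subunit of the phagocyte oxidase, was at 0 in the 4 WT libraries after 5-FU and at 79.3, 124 and 16.9 in KO. It passed the filter through those KO libraries alone, so its call among the 3 higher genes is no support for a change of the list. The interaction was called for Anxa1 (adjusted p = 0.00634) and, in the other direction, for Lyz2 (adjusted p = 0.0256). The lists were read beside the background percentages given above, and in untreated cells 0 genes of any list were called between genotypes.

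Of the 15 other genes of mast cells and basophils tested, 3 were lower in KO after 5-FU, namely Slc18a2, Lat and Kit. Of 27 listed genes apart from Fcer1a, 15 were in the table and tested, and 0 were higher in KO after 5-FU, with a median of -0.20. Those not in the table included the mast cell protease genes Cma1, Tpsb2 and Tpsab1 and the IgE receptor beta chain gene Ms4a2. The mast cell protease gene Cpa3 was not called after 5-FU (log2 -0.39, limma adjusted p = 0.664). Hdc, Mitf, Alox5 and Lat2 had positive differences that were not called. Slc18a2, the vesicular monoamine transporter of mast cells and platelets, stood at 1361, 1918 and 1479 in KO against 4857 to 6593 in WT (3.64-fold lower, log2 -1.65, SE 0.168, limma adjusted p = 2.27e-05). Lat, a signalling adaptor of mast cells, T cells and platelets, was 2.67-fold lower (log2 -1.16, adjusted p = 0.000175). Kit, the stem cell factor receptor carried by HSCs and mast cells, was 2.82-fold lower (log2 -1.29, adjusted p = 0.000599). The interaction was called for Slc18a2 (adjusted p = 0.00505) and Lat (adjusted p = 0.0146). With 5-FU 1 gene fell in WT and 3 fell in KO, and 0 rose in either. The IgE receptor gamma chain Fcer1g, which pairs with Fcer1a, overlapped between genotypes after 5-FU, with normalized counts of 428 to 715 in WT and 432 to 555 in KO.

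**Figure D4:**
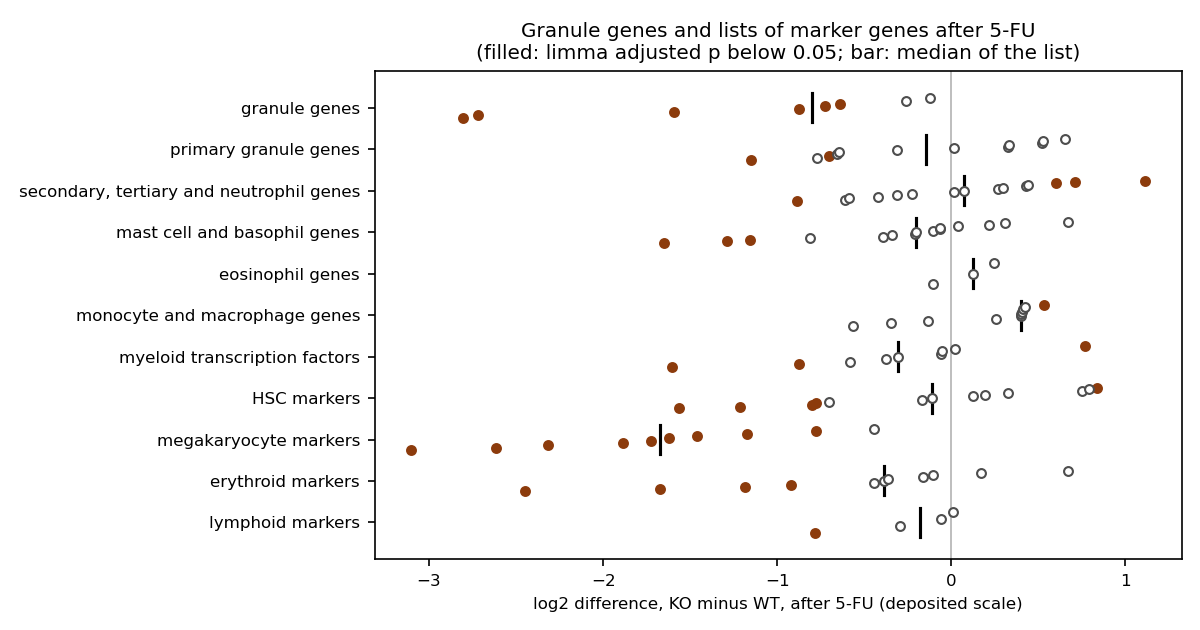
Log2 difference of KO minus WT after 5-FU (x axis, deposited scale) for the 8 granule genes and for the tested members of 10 other lists; points are genes, filled where limma's adjusted p was under 0.05, and bars are list medians. The median of the 8 genes is -0.80, that of the megakaryocyte markers -1.67, and those of the 3 granulocyte and mast cell lists lie between -0.20 and 0.07.

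Markers of other lineages differed between the same groups. The summed normalized counts of 10 megakaryocyte markers were 33579 to 58204 in WT after 5-FU, 6422 to 9109 in KO after 5-FU and 9599 to 11939.6 in untreated cells, and 9 of the 10 were lower in KO after 5-FU. For 12 erythroid markers the sums were 41581 to 45669 in WT and 28542 to 40099 in KO after 5-FU, with 4 of 11 tested genes lower in KO. In untreated cells they were 47427 to 72585. Most of each sum after 5-FU was Car2, at 35672 to 38169 in WT and 23592 to 36038 in KO, and it was not called. The 13 genes listed as HSC markers, with Cd34, Flt3 and Cd48 among them, summed to 13323 to 18019.8 in WT and 9759 to 11881 in KO after 5-FU. Of the 13, 4 were lower and 1 was higher, and Cd34, Flt3 and Cd48 were not called. The sums of 12 monocyte and macrophage genes overlapped, at 666 to 960.5 and 676 to 1024, and the 1 gene higher in KO passed the filter through KO libraries after 5-FU alone. The eosinophil genes overlapped as well, at 11.4 to 264 and 22.8 to 98.9, with 0 of 3 called. The 5 lymphoid markers in the table summed to 1221 to 2216 in WT and 589 to 985 in KO, with 1 of 4 tested lower. That gene, Cd79b, made up most of each sum, at 1139 to 1931 in WT and 536 to 777 in KO. Of 9 genes listed as myeloid transcription factors, 2 were lower in KO after 5-FU (Gata1 and Runx1) and Irf8 was higher. Gata1 is a factor of megakaryocytes and erythroid cells, so the list is not specific to granulocytes and monocytes. Spi1, Cebpb and Cebpd were not called. The part of these cell types in the results of the granule genes was not tested.

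The genes most like each member over the 13 libraries were found by the root mean square distance of the deposited log2-scale values, each gene centred on its own mean. Nearest to Fcer1a were the platelet receptor genes Gp1bb at 0.380 and Treml1 at 0.418, where Fcer1a itself spread by 1.20. Gp1bb averaged 2172 ± 323 in WT and 190.3 ± 56.4 in KO after 5-FU. Nearest to Plac8 were Pdcd4 at 0.491, which encodes an inhibitor of translation, and again Treml1 at 0.582 (own spread 1.26). S100a8 was nearest to the interleukin 20 receptor gene Il20ra at 0.316 and to the platelet gene Gp9 at 0.328 (own spread 0.690), and S100a9 to Fam110b at 0.171 and Atp6v0a1 at 0.196 (0.392).

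The other members spread less over the libraries, and every gene with little spread lies close to them by construction. Lcn2 (own spread 0.308) was nearest to Ofd1 at 0.106 and H1fx at 0.119, and Prtn3 (0.368) to Rtl8a at 0.116 and Zfpl1 at 0.149. Elane (0.257) was nearest to Gal3st1 at 0.0734 and Upb1 at 0.111, and Mpo (0.299) to Fhdc1 at 0.105 and Zbtb6 at 0.141. Among the members themselves the closest pairs were Elane with Lcn2 at 0.188 and Lcn2 with S100a9 at 0.338, followed by Prtn3 with S100a9 at 0.364 and S100a8 with S100a9 at 0.389. The genomic neighbours Prtn3 and Elane stood at 0.454, and Fcer1a and Plac8 at 0.521, which is under the spread of either.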

How the data were processed

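RNA of 100 sorted HSCs per library was measured in 13 libraries. The authors deposited log2-scale variance-stabilized values made with DESeq2, after Trimmomatic and Bowtie 1.1.1 on mm10, per the submitters' processing notes. Of the counting tool, annotation and strand setting the sources used here say nothing (not given). The deposited values were turned back into read counts by inverting the transformation (value at 0 of 7.64838 on the log2 scale), and 100% came out whole within 0.01 in every library. Intervals and floors from 3 reads cover counting error only, and reads carry no molecular identifiers.

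The deposited values were tested with limma 3.58.1 (R 4.3.3) over all 13 libraries, with 1 mean per group, eBayes with a trend (residual df 9, prior df 7.67) and Benjamini-Hochberg adjustment at 0.05 over 12846 genes. Plots were drawn with matplotlib 3.10.9, and reads were recovered with pandas 2.3.3, numpy 2.4.6 and scipy 1.17.1 in Python 3.11.15. Fold changes are ratios of mean normalized counts, and log2 differences on the deposited scale understate the change of low genes. Symbols came from GENCODE M21 and promoter windows from RefSeq (GRCm38.p6). No protein sequences were used.

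Named were the members, Map2k1, up to 3 tested genes with the smallest p from each list described, and the 2 genes nearest to each member. Fcer1g, Cpa3, Hdc, Mitf, Alox5, Lat2, Cd34, Flt3, Cd48, Car2, Spi1, Cebpb and Cebpd were named after their values were seen, and some listed genes were named as not in the table. Some items are not reported here. Members and lists were chosen with earlier results of these data known. Alternatives were other filters, thresholds, scalings and pseudocounts, limma-voom, library weights, robust variances, acquisition date as a term, averaging WT A3 and D4 after 5-FU, and leaving out each library.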

Additional observations from a re-analysis of the deposited data

Results flagged for a closer look

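The response to 5-FU differed between the genotypes for S100a8 and Fcer1a by the test of the interaction. For S100a8 the interaction was -2.05 on the log2 scale (limma adjusted p = 0.00800), with all 4 WT libraries after 5-FU above the 3 untreated ones and all 3 KO libraries after 5-FU below the 3 untreated ones. For Fcer1a it was -2.10 (adjusted p = 0.00907), with all 4 WT libraries higher after 5-FU and the KO groups overlapping. WT after 5-FU was the only group of 4 libraries. Over the 8 genes, 0 had a library there that stood apart by Dixon's 95% criterion on the deposited log2-scale values, and Elane with A4 at 0 did not reach it.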

How the results depend on the processing

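The count of 6 members lower in KO after 5-FU was 5 to 6 when 1 library was left out, and that of 0 in untreated cells was 0 throughout those fits. The WT response to 5-FU (4 members, 3 to 4 without 1 library) came to 2 (Lcn2 and S100a8) under TMM scaling and with pseudocounts of 0.5, 1 or 5. The KO response (1 member in every fit without 1 library) came to 3 (Prtn3, S100a8 and S100a9) under TMM scaling, with those pseudocounts and with only the groups compared. With acquisition date as a term both responses depend on WT D4 alone for the effect of date, so no count is given for that fit. The interaction (2 members, 2 to 3 without 1 library) came to 1 (S100a8) with limma-voom and without both WT A3 and D4, and to 4 (with Lcn2 and Plac8) with library weights. Under TMM and pseudocounts of 0.5 or 1 it called S100a9 and Lcn2 besides S100a8, but not Fcer1a, and under a pseudocount of 5 it called S100a9 and not Fcer1a. Quantile normalization added S100a9 (adjusted p = 0.0414), as did leaving out untreated WT D2 (0.0498). Library weights made Elane the seventh member lower in KO after 5-FU. Only values that were not called changed sign. For Mpo these were KO against WT untreated with limma-voom (-0.73) and the WT response without both A3 and D4 (0.0268). For Plac8 the KO response was 0.0132 with TMM, 0.00939 with quantile normalization, 0.0746 with library weights and 0.16 with the date. Without 1 library, Mpo ranged from -0.25 to 0.29 in untreated cells, -0.23 to 0.13 for the WT response, -0.44 to 0.0165 for the KO response and -0.42 to 0.12 for the interaction. In the KO response Lcn2 ranged from -0.0172 to 0.0137, Plac8 from -0.36 to 0.38 and Fcer1a from -0.51 to 0.00240. The cause was not tested. A minimum count of 50 left 5 members to test. No paired analysis was possible because the groups compared share fewer than 2 replicate labels.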
